A study of Mus musculus with 12 samples.

Results

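The tumour necrosis factor (TNF) receptor superfamily was followed in 10 genes in mouse splenic B cells: Tnfrsf13c, Tnfrsf13b, Tnfrsf17, Cd40, Cd27, Tnfrsf4, Tnfrsf8, Tnfrsf1b, Tnfrsf1a and Fas. They were chosen by symbol from the 52330 genes common to 3 deposited tables of raw counts, and each was found with the same identifier and exonic length in all of them. B cells had been enriched from spleen by removing cells that carry CD43, a surface protein of T cells, plasma cells and B1 cells, and their poly(A) RNA was sequenced. Wild-type (WT) cells were compared with double knockout (DKO) cells, in which Cre-loxP recombination had removed both Hnrnpa1 and Hnrnpa2b1, the genes of the nuclear RNA-binding proteins hnRNP A1 and hnRNP A2B1. There were 3 WT and 3 DKO libraries of untreated cells, processed without culture, and 2 per genotype of cells stimulated in culture with anti-IgM (10 µg/mL) and anti-CD40 (1 µg/mL) for 48 h. A further 2 WT libraries of untreated cells, deposited in a table of their own and called additional here, entered no main test. Strain, age, the promoter that drove Cre and whether each replicate was a separate animal are details the sources used here do not give. P-values therefore measure the spread between these libraries, which may be technical in part or in whole. Of the stimulated WT columns, 1 carried a number that matched no title, and it is called the WT library without a number.

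Receptors of this family are trimerising proteins of the cell surface that bind ligands of the TNF superfamily, which other immune cells display or secrete. Most of them recruit TRAF adaptors and turn on NF-kB, either by the canonical route or by the noncanonical route through the kinase NIK (Map3k14) and p100 (Nfkb2), whereas receptors with a death domain can also recruit FADD and caspase-8. In B cells they carry survival signals from BAFF and APRIL, help from T cells through CD40, and a death signal through Fas.

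Library totals lay between 15090953 and 21731893 assigned counts. In the 5 DKO libraries Hnrnpa1 kept 10.6% to 27.4% and Hnrnpa2b1 17.4% to 32.3% of the WT mean. The 8 B cell markers summed to between 3002 and 6704 CPM (counts scaled to the library total) in every library, and the genes that define T cells (Cd3d, Cd3e, Cd3g, Cd4, Cd8a and Cd8b1) had 0 to 28 counts in each of the 12 libraries. Untreated WT 2 and untreated DKO 1 read as female from Xist and Y-linked genes, 1 in each genotype, and the others as male. The numbered untreated libraries of each genotype were therefore not all from the same animal.

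Promoters are shown for Tnfrsf8, whose response to stimulation differed between genotypes, for Tnfrsf4, the other member that was higher in stimulated DKO cells, and for Fas, which rose in both genotypes. RefSeq promoter entries (build GRCm38.p6) matched 9 of the 10 members; Cd40 had none. The 250 bases before the start of these 3 genes are printed 5′ to 3′, with capitals at matches to the AP-1 motif TGANTCA and the E box CACGTG. These were 2 of 5 motifs searched on both strands and were put in capitals after their matches were seen. The windows are chr4:145315165-145315414 (minus strand) for Tnfrsf8, chr4:156013445-156013694 (plus) for Tnfrsf4 and chr19:34290409-34290658 (plus) for Fas.
Tnfrsf8: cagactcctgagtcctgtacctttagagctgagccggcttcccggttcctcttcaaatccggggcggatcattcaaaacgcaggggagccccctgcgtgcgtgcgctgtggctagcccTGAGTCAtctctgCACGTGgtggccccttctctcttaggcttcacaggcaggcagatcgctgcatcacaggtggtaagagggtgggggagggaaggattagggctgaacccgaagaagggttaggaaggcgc
Tnfrsf4: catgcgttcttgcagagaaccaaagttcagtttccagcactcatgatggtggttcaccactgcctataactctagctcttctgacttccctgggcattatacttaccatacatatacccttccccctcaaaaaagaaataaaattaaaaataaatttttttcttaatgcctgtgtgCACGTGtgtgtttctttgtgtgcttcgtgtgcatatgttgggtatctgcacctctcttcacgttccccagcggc
Fas: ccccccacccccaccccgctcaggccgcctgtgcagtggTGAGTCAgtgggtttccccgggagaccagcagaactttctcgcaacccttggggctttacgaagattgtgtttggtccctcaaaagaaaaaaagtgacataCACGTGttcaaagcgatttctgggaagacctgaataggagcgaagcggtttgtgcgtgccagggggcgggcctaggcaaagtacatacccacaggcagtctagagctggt
Tnfrsf8 held an AP-1 match 132 bases and an E box 119 bases before its start, Fas held the same pair at 211 and 110 bases, and Tnfrsf4 held an E box at 74 bases and no AP-1 match. Among the 9 members with an entry, 2 held the AP-1 letters and 3 the E box, against 6.75% and 6.02% of 32851 promoter entries of the same length. The other motifs searched were the kappa B motif (GGG, any 5 bases, then CC), in 7 of the 9 members against 45.8% of entries, the GC box GGGCGG, in 5 against 32.7%, and the TATA box TATAAA, in 1 against 12.4%. Tnfrsf8 held 4 kappa B matches, some of which overlap, Fas 2 and Tnfrsf4 none. These matches describe letters in a window and show no binding.

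The receptors covered a wide range of transcript levels, compared here as CPM per kb of exon. In untreated WT cells the order was Tnfrsf13c (151 ± 10.9, mean ± SD, n = 3), Tnfrsf13b (74.2 ± 5.01), Cd40 (35.4 ± 5.90), Fas (19.2 ± 4.05), Tnfrsf1b (10.5 ± 0.129), Tnfrsf4 (5.84 ± 0.844), Tnfrsf8 (4.71 ± 0.344), Cd27 (2.22 ± 0.155), Tnfrsf1a (0.256 ± 0.113) and Tnfrsf17 (0.0426 ± 0.0738). The ranges of neighbours in that order did not overlap. In untreated DKO cells the order was kept, except that Tnfrsf4 stood above Tnfrsf1b and that Tnfrsf4, Tnfrsf1b and Tnfrsf8 overlapped, at 8.92 ± 2.06, 8.02 ± 0.660 and 6.29 ± 1.35 CPM per kb. After stimulation Fas took the third place in both genotypes, at 33.8 ± 7.61 in WT and 35.5 ± 1.87 in DKO (n = 2 each), above Cd40 at 24.9 ± 1.34 in WT and overlapping with Cd40 at 34.7 ± 7.49 in DKO. Tnfrsf8 took the eighth place in stimulated WT cells, at 0.629 ± 0.192 CPM per kb, far below Cd27 at 3.44 ± 0.668, and the sixth in stimulated DKO cells, at 5.44 ± 0.0527.

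**Figure D1:**
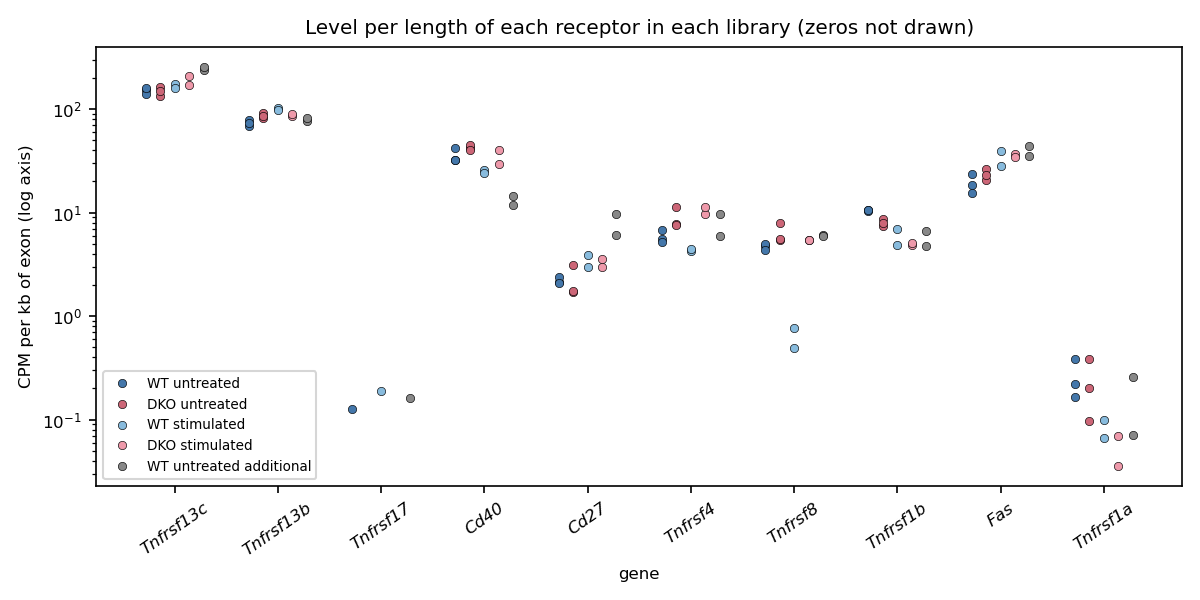
CPM per kb of exon (log axis) of the 10 receptors, 1 point for each of 12 libraries, coloured by group; zeros are not drawn. The 2 stimulated WT points of Tnfrsf8, at 0.494 and 0.765, lie below its points in all other groups.

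The first comparison asked how the receptors differed between DKO and WT cells that were stimulated. Of 8 members tested, 2 were higher in DKO cells, Tnfrsf8 and Tnfrsf4, and none was lower, where 5.09% of 14430 tested genes were higher and 6.17% lower. Both encode costimulatory receptors of activated lymphocytes, CD30 and OX40. The members' median log2 fold change was 0.23 and that of all tested genes -0.03.

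Tnfrsf8 (ENSMUSG00000028602; GRCm39 chr4:144993707-145041734, minus strand) encodes CD30, a receptor of activated lymphocytes whose ligand is the product of Tnfsf8. It had 51 and 30 counts in the stimulated WT libraries and 412 and 314 in the stimulated DKO libraries. These correspond to 2.65 and 1.71 CPM in WT and 19.0 and 18.7 CPM in DKO. Both DKO libraries stood far above both WT libraries, and the DKO values differed from each other by less than the WT values did. The log2 fold change was 3.20 ± 0.27 (± SE), or 9.17-fold (edgeR quasi-likelihood test, Benjamini-Hochberg adjusted p = 0.00102), the tenth smallest p of all tested genes. The call held in each of 10 alternatives, with log2 fold changes of 2.90 to 3.58.

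Tnfrsf4 (ENSMUSG00000029075; chr4:156098300-156101069, plus strand) encodes OX40, known best as a costimulatory receptor of T cells. Its values were 5.87 and 6.03 CPM in stimulated WT and 13.2 and 15.3 CPM in stimulated DKO libraries. The groups did not overlap, which also held for 62.7% of all tested genes in this comparison of 2 against 2. Tnfrsf4 was 2.56-fold higher in DKO cells, a log2 fold change of 1.36 ± 0.21 (edgeR adjusted p = 0.00792), and the call held in each of 10 alternatives, at 1.31 to 1.43.

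The other tested members did not pass in stimulated cells. Cd40 had the largest value among them, 88.2 and 81.7 CPM in WT against 136 and 100.2 in DKO, with a log2 fold change of 0.58 ± 0.20 (edgeR adjusted p = 0.0936). Cd40 passed in 3 of 10 alternatives. Without stimulated DKO 2 it reached 0.85 and Tnfrsf13c reached 0.49, with the lone DKO library taken to vary like the others. Tnfrsf13c gave 0.28 ± 0.19, Fas 0.17 ± 0.19, Cd27 0.03 ± 0.24, Tnfrsf13b -0.11 ± 0.17 and Tnfrsf1b -0.16 ± 0.21, with edgeR adjusted p-values from 0.355 to 0.947. Tnfrsf17 and Tnfrsf1a had too few counts to be tested.

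The second comparison set stimulated against untreated cells of the same genotype. Untreated cells were not cultured and stand in another table, so effects of the antibodies, of culture and of table cannot be told apart, nor can fewer cells of a type be told from less RNA per cell in bulk libraries. In WT cells 2 of 9 tested members rose, Fas and Tnfrsf13b, and 3 fell, Tnfrsf8, Tnfrsf1b and Cd40, against 17.8% of 15006 genes higher and 22.8% lower. In DKO cells 2 of 9 rose, Fas and Tnfrsf13c, and 1 fell, Tnfrsf1b, against 16.2% higher and 16.8% lower. These counts lie near the shares of all genes and are no result about the members as a set.

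**Figure D2:**
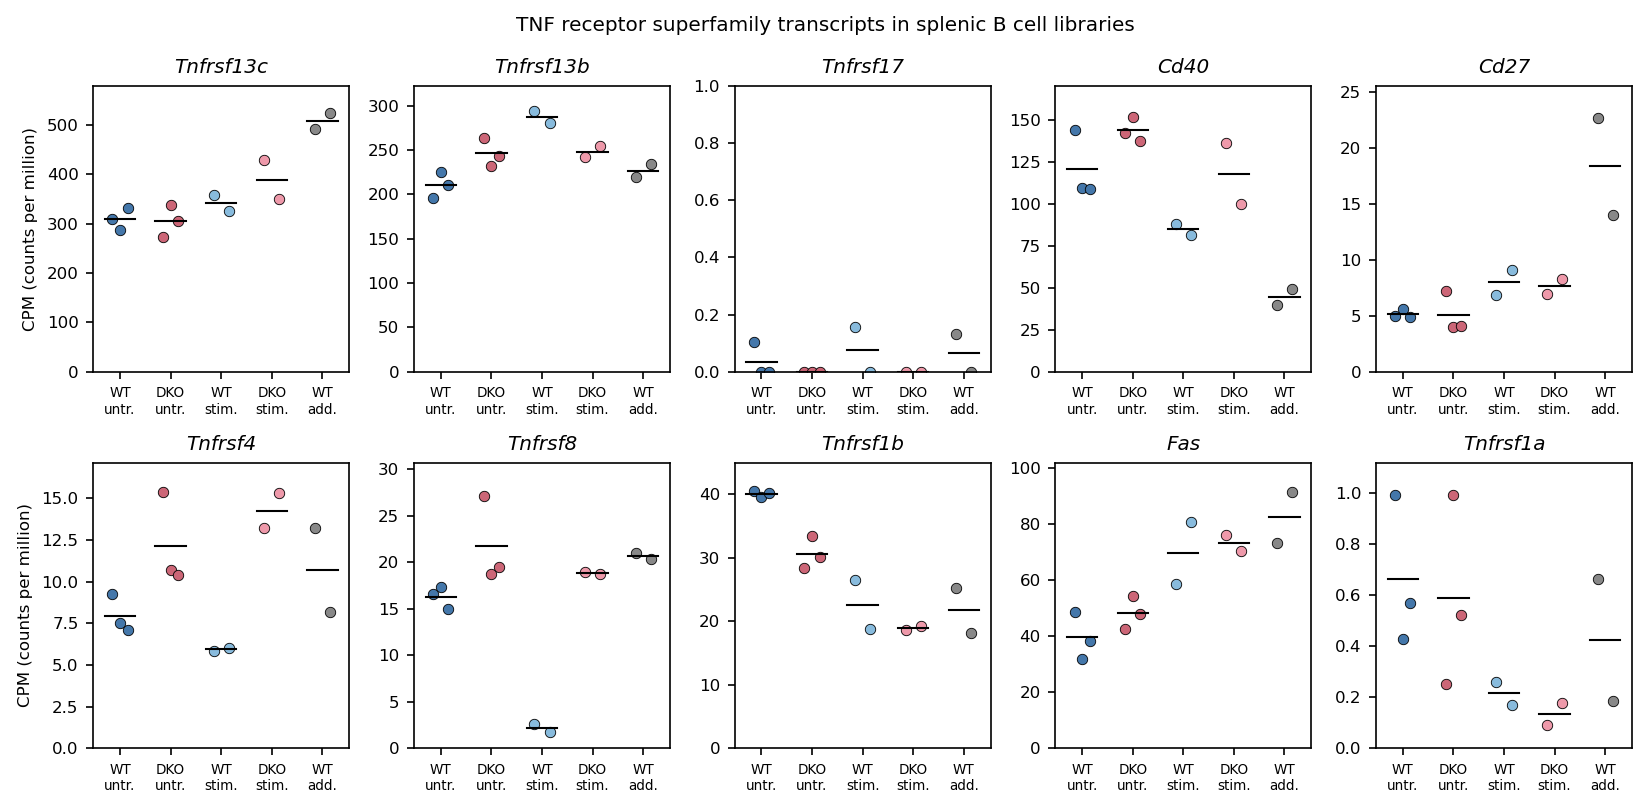
CPM of each receptor in 12 libraries (points) with the group mean (line), for untreated (untr.), stimulated (stim.) and additional (add.) WT and DKO cells, each panel on its own linear axis from 0. Tnfrsf8 falls to 1.71 and 2.65 CPM in stimulated WT libraries and is at 15.01 or more in all others.

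Tnfrsf8 showed the largest change of the members in WT cells. It had 16.6, 17.3 and 15.01 CPM in the untreated WT libraries, against the 2.65 and 1.71 CPM after stimulation given above. It fell 7.38-fold, a log2 fold change of -2.88 ± 0.25 (edgeR adjusted p = 3.24e-06), and the call held in each of 18 alternatives (-3.26 to -2.59). In DKO cells the untreated libraries had 27.2, 18.7 and 19.4 CPM and the stimulated ones 19.0 and 18.7. These DKO groups overlapped, and the log2 fold change was -0.14 ± 0.20 (edgeR adjusted p = 0.620). The additional WT libraries, untreated, had 21.0 and 20.3 CPM, above the other untreated WT libraries.

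Tnfrsf1b, whose product TNFR2 binds TNF and has no death domain, fell in both genotypes. Its untreated WT libraries had 40.6, 39.6 and 40.2 CPM and the stimulated ones 26.5 and 18.8, a log2 fold change of -0.81 ± 0.16 (edgeR adjusted p = 0.00129). In DKO cells 28.4, 33.4 and 30.1 CPM went to 18.7 and 19.2, a change of -0.63 ± 0.16 (edgeR adjusted p = 0.00866). No stimulated library reached the lowest numbered untreated library of its genotype. Such an absence of overlap was shown by 66.8% of tested genes in WT and 55.5% in DKO cells. The additional WT libraries, although untreated, had 25.3 and 18.1 CPM of Tnfrsf1b. Tnfrsf1b (ENSMUSG00000028599; chr4:144940033-144973440, minus strand) lies 20.3 kb from Tnfrsf8 with no listed gene between them, and is set beside it here. Per kb of exon, Tnfrsf8 stood at 0.412 to 0.484 of Tnfrsf1b in numbered untreated WT and at 0.1003 to 0.110 in stimulated WT libraries. The additional WT libraries gave 0.916 and 1.24. In DKO libraries that ratio was 0.618 to 1.05 before and 1.07 to 1.12 after stimulation, so the neighbours kept no common ratio across groups.

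Fas (ENSMUSG00000024778; chr19:34268066-34305172, plus strand), the death receptor that activated B cells carry, rose in both genotypes. WT libraries went from 48.5, 31.9 and 38.3 CPM to 58.7 and 80.9, a log2 fold change of 0.82 ± 0.18 (edgeR adjusted p = 0.00291). DKO libraries went from 42.6, 54.4 and 48.1 CPM to 76.0 and 70.6, a change of 0.67 ± 0.18 (edgeR adjusted p = 0.0118). Every stimulated library lay above every numbered untreated one of its genotype. The additional WT libraries, although untreated, had 73.4 and 91.5 CPM of Fas. The WT call was lost without the WT library without a number (0.60, edgeR adjusted p = 0.0647), and the DKO call without stimulated DKO 1 (0.55, edgeR adjusted p = 0.0762).

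Cd40 (ENSMUSG00000017652; chr2:164897547-164914868, plus strand) encodes the receptor that the anti-CD40 antibody binds. It had 144, 109 and 109 CPM in untreated and 88.2 and 81.7 CPM in stimulated WT libraries. The log2 fold change of -0.50 ± 0.17 (edgeR adjusted p = 0.0341) did not hold its call without untreated WT 1 (-0.32, edgeR adjusted p = 0.142), without stimulated WT 1 (-0.57, edgeR adjusted p = 0.0849) or without the WT library without a number (-0.42, edgeR adjusted p = 0.211). DKO libraries had 142, 152 and 138 CPM untreated and 136 and 100.2 stimulated, a log2 fold change of -0.21 ± 0.17 that did not pass (edgeR adjusted p = 0.378) except without stimulated DKO 1 (-0.52, edgeR adjusted p = 0.0354). Expressed as a ratio per kb of exon, Cd40 exceeded Fas in all 6 numbered untreated libraries, by 1.69 to 2.08 times, and stood at 0.612 to 1.09 times Fas in the 4 stimulated ones. The 2 additional WT libraries gave 0.326 and 0.330 although untreated, with 40.0 and 49.3 CPM of Cd40.

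The BAFF receptor gene Tnfrsf13c (ENSMUSG00000068105; chr15:82105944-82108570, minus strand) and Tnfrsf13b (ENSMUSG00000010142; chr11:61017581-61040198, plus strand), which encodes TACI, a receptor of BAFF and APRIL, were the most abundant members. Tnfrsf13b had 196, 225 and 210.3 CPM in untreated and 293 and 280.0 CPM in stimulated WT libraries. It rose in WT cells by 0.45 ± 0.11 in log2 (edgeR adjusted p = 0.00593), in each of 18 alternatives, and gave 0.08 ± 0.11 in DKO cells (edgeR adjusted p = 0.634). Tnfrsf13c had 310.1, 287 and 331 CPM in untreated and 359 and 326 in stimulated WT libraries, which overlapped, and the log2 change of 0.16 ± 0.14 did not pass (edgeR adjusted p = 0.413). In DKO cells it went from 272, 338 and 305 CPM to 428 and 351, a rise of 0.43 ± 0.14 (edgeR adjusted p = 0.0364) that did not pass in 7 of 18 alternatives. The lowest of these was 0.21 (edgeR adjusted p = 0.270) without stimulated DKO 1, the library with 428 CPM. The others among them that left out 1 library were those without untreated DKO 1 (edgeR adjusted p = 0.115), untreated DKO 3 (0.0818), untreated WT 3 (0.0509) and stimulated WT 1 (0.0521). Tnfrsf17 (ENSMUSG00000022496; chr16:11131676-11137938, plus strand), which encodes BCMA, the receptor of plasma cells, had 0 to 3 counts in each library and 0 in all 5 DKO libraries. A count of 0 allows up to 3 counts, or 0.138 to 0.195 CPM in these DKO libraries, so no difference was detectable at this depth.

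Cd27, Tnfrsf4 and Tnfrsf1a did not pass in either genotype. Cd27, whose product is the receptor of CD70, had 4.92 to 5.58 CPM in numbered untreated and 6.90 and 9.11 in stimulated WT libraries. Its log2 fold change was 0.63 ± 0.25 (edgeR adjusted p = 0.0630). In DKO cells it had 3.96 to 7.20 and 6.95 and 8.34 CPM (0.65 ± 0.26, edgeR adjusted p = 0.0708). Cd27 passed in 3 of 18 alternatives in each genotype, among them that without untreated DKO 1 (edgeR adjusted p = 0.0218 and 0.00709). Cd27 (ENSMUSG00000030336; chr6:125209585-125213973, minus strand) overlaps Vamp1 on the opposite strand, which had up to 813 counts per library, so its values are uncertain where reads were counted without strand. Tnfrsf4 had 9.27, 7.54 and 7.09 CPM in untreated WT libraries, all above the 5.87 and 6.03 CPM of stimulated ones, but -0.42 ± 0.21 did not pass (edgeR adjusted p = 0.136). Its DKO libraries, at 15.4, 10.7 and 10.4 CPM before and 13.2 and 15.3 after, overlapped (0.29 ± 0.20, edgeR adjusted p = 0.289). Tnfrsf1a (ENSMUSG00000030341; chr6:125326325-125339447, plus strand), the gene of the death domain receptor TNFR1, had 4 to 19 counts in numbered untreated libraries and 2 to 5 in stimulated ones. Its log2 fold changes were -1.58 ± 0.71 in WT and -2.05 ± 0.79 in DKO cells (edgeR adjusted p = 0.0943 and 0.0646). Tnfrsf1a passed in 1 of 15 alternatives in WT cells and in 3 of 15 in DKO cells. Among the latter was that without untreated DKO 1 (-2.41, edgeR adjusted p = 0.0370).

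The difference between the 2 responses was tested as an interaction, the change on stimulation in DKO cells minus that in WT cells. Of 9 tested members 1 passed, Tnfrsf8, and of all 15006 tested genes 0.133% passed with a positive and 0.00666% with a negative term. The Tnfrsf8 term was 2.74 ± 0.31 (edgeR adjusted p = 0.00488), the third smallest p of all tested genes. It held in 17 of 18 alternatives and was lost without the WT library without a number, where it was 2.44 (edgeR adjusted p = 0.0515) and 1 gene of all passed. Tnfrsf4 had a term of 0.70 ± 0.29 (edgeR adjusted p = 0.374) and Tnfrsf13b one of -0.38 ± 0.16 (edgeR adjusted p = 0.383). For the other 6 tested members adjusted p-values ran from 0.607 to 0.995, so the differing calls of Cd40, Tnfrsf13b and Tnfrsf13c between genotypes were not shown to differ.

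**Figure D3:**
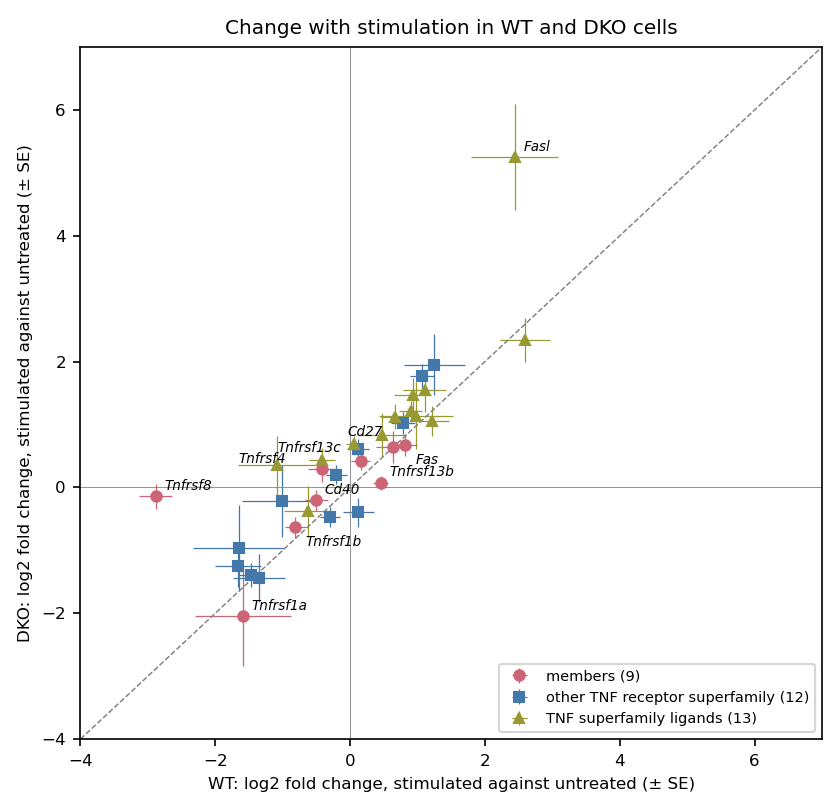
Log2 fold change on stimulation in WT (x axis) and DKO cells (y axis), ± SE, for 9 tested members, 12 other receptors and 13 ligands of the family; the dashed line marks equal changes. Tnfrsf8, at -2.88 in WT and -0.14 in DKO, lies farther from the line than any other member. The ligand gene Fasl, at 2.44 and 5.25, lies farther still, with an interaction term of 2.80 ± 1.20 that did not pass (edgeR adjusted p = 0.388).

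The last comparison set untreated DKO against untreated WT cells. Of 8 tested members, Tnfrsf4 and Tnfrsf13b were higher and Tnfrsf1b lower in DKO cells, where 8.81% of 13561 genes were higher and 10.6% lower. The members' median log2 fold change was 0.31 and that of all tested genes -0.01. Tnfrsf4, with the values given above, was higher by 0.68 ± 0.19 (1.60-fold, edgeR adjusted p = 0.0388). The DKO and numbered WT libraries did not overlap for Tnfrsf4, Tnfrsf13b and Tnfrsf1b, as for 39.4% of tested genes. The additional WT libraries had 13.3 and 8.17 CPM of Tnfrsf4, 219.7 and 233.7 of Tnfrsf13b and 25.3 and 18.1 of Tnfrsf1b. With them the ranges of the genotypes overlapped for each of these genes. Tnfrsf13b, with 263, 232 and 243 CPM in DKO libraries, was higher by 0.30 ± 0.08 (edgeR adjusted p = 0.0294). Tnfrsf1b was lower by a log2 fold change of -0.32 ± 0.09 (edgeR adjusted p = 0.0410).

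None of these 3 calls held in every alternative. Of 16 alternatives, the call held in 9 for Tnfrsf13b, in 8 for Tnfrsf4 and in 6 for Tnfrsf1b, with the direction unchanged in each. Leaving out untreated WT 3 ended all 3 (edgeR adjusted p = 0.131, 0.151 and 0.120), as did leaving out untreated DKO 1 (0.0707, 0.0984 and 0.1001) or DKO 3 (0.0775, 0.0615 and 0.128), in the order Tnfrsf13b, Tnfrsf4 and Tnfrsf1b. Tnfrsf13b also lost its call without WT 1 (edgeR adjusted p = 0.108), Tnfrsf4 without WT 2 (0.0718) or DKO 2 (0.0522), and Tnfrsf1b without WT 1 (0.0965) or WT 2 (0.0575). Tnfrsf8 had no overlap between the numbered groups, although the additional WT libraries (21.0 and 20.3 CPM) lay within its DKO range. Its change of 0.49 ± 0.16 did not pass (edgeR adjusted p = 0.0588). It passed with DESeq2 (adjusted p = 0.0338), with no filter on low counts (edgeR adjusted p = 0.0253) and with a term for sex (edgeR adjusted p = 0.00878). The highest untreated DKO values of Tnfrsf8 (27.2 CPM), Tnfrsf4, Tnfrsf13b and Cd27 were all in DKO 1, which reads as female. The lowest of Tnfrsf1b, Fas and Tnfrsf13c were there too. Cd40 gave 0.33 ± 0.12 (edgeR adjusted p = 0.0780), Fas 0.36 ± 0.15 (edgeR adjusted p = 0.133), Tnfrsf13c 0.05 ± 0.09 (edgeR adjusted p = 0.731) and Cd27 0.05 ± 0.25 (edgeR adjusted p = 0.904). Cd40 passed in 4 and Fas in 2 of 16 alternatives. Without WT 1, Cd40 and Fas passed, at 0.47 and 0.53 (edgeR adjusted p = 0.0127 and 0.0349). For Tnfrsf13c and Cd27 the mean CPM of the plain totals was lower in DKO cells, 305 against 309 and 5.09 against 5.17, so the sign of these 2 depends on the scaling.

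**Figure D4:**
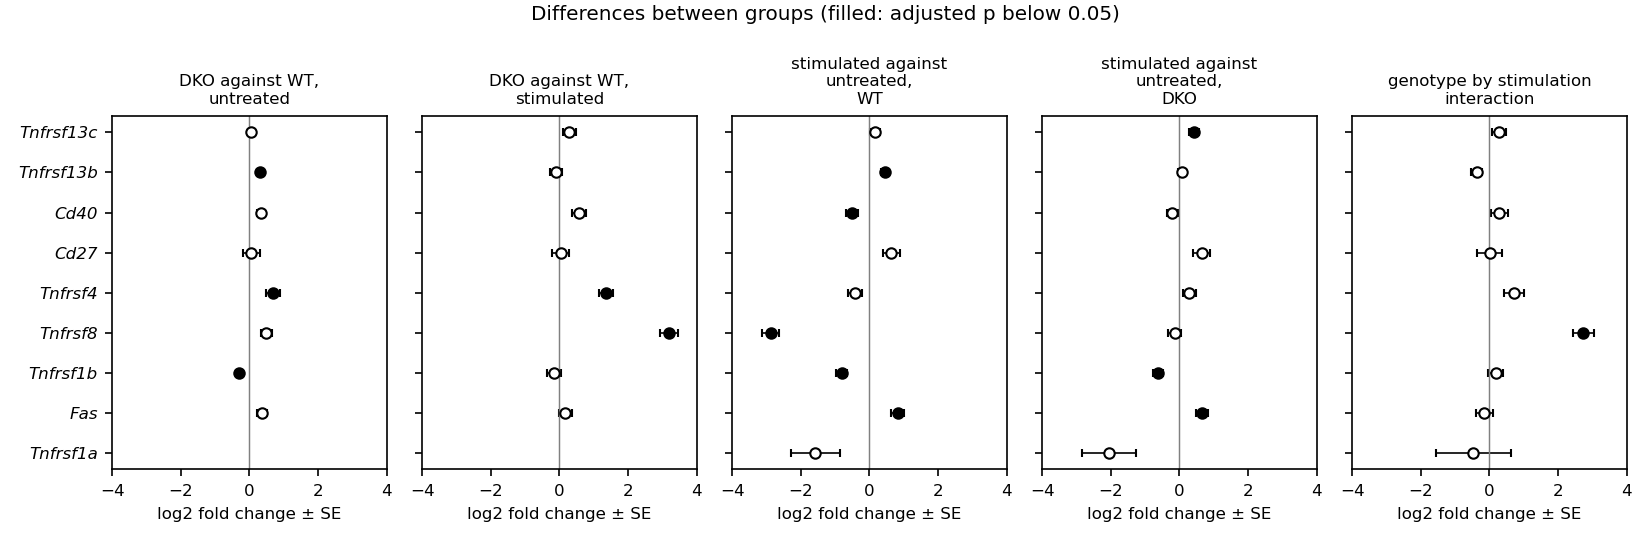
Log2 fold change ± SE of the tested members in 5 comparisons, with filled symbols for an adjusted p below 0.05. Tnfrsf8 is at 3.20 in stimulated and 0.49 in untreated DKO against WT cells, and at 2.74 in the interaction.

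The genes whose profile over the 10 numbered or stimulated libraries was most like a member's were found by the root mean square difference of centred log2 CPM among 10656 genes. For Tnfrsf8, whose own SD over these libraries was 1.35, they were Nudt17 (0.380), Gm37795 (0.420) and Gadd45b (0.464). For Tnfrsf4 they were Pop1 (0.162), Snhg5 (0.183) and Snhg4 (0.198). Cd40 was nearest to Znhit3 (0.0685), Fas to Gm37145 (0.116), Tnfrsf13b to Jade2 (0.0559), Tnfrsf13c to Dtnbp1 (0.0798), Tnfrsf1b to Hspa5 (0.0999) and Cd27 to Fndc9 (0.166). Tnfrsf8 thus stood farther from its nearest gene than any of the other 7 members so compared, which also varied less.

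Other receptors of the family, their ligands and their signalling genes were read from the same fits. In stimulated cells 5.09% of all tested genes were higher in DKO and 6.17% lower. Of 11 tested other receptors 2 were higher and none lower, with a median log2 fold change of 0.19 beside -0.03 for all tested genes. These were Tnfrsf18, the gene of GITR, at 13.2 CPM in WT and 28.0 in DKO (log2 fold change 1.18 ± 0.19, edgeR adjusted p = 0.00815), and the TRAIL receptor gene Tnfrsf10b, at 10.8 and 20.4 CPM (1.02 ± 0.20, edgeR adjusted p = 0.0160). Tnfrsf18 lies 9.55 kb from Tnfrsf4 on chromosome 4, with 2 listed genes between them. Untreated DKO cells also had higher Tnfrsf18 (0.99 ± 0.17), Tnfrsf14 (0.73 ± 0.14) and Tnfrsf10b (0.56 ± 0.13) and lower Tnfrsf26 (-0.75 ± 0.20), with edgeR adjusted p-values of 0.00635 to 0.0308. That is 3 higher and 1 lower of 11 tested, where 8.81% of all tested genes were higher and 10.6% lower.

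Among ligands, 7 of 13 tested rose on stimulation in WT and 8 of 13 in DKO cells, and none fell, where 17.8% of all tested genes rose and 22.8% fell in WT and 16.2% rose and 16.8% fell in DKO cells. Their median log2 fold change was 0.90 in WT and 1.12 in DKO cells, beside -0.02 and -0.01 for all tested genes. Tnfsf8, the CD30 ligand gene, rose by 2.60 ± 0.37 in WT (edgeR adjusted p = 0.000160) and 2.34 ± 0.35 in DKO cells (edgeR adjusted p = 0.000310). It went from 0.850 to 5.21 CPM in WT and from 1.38 to 6.76 CPM in DKO, so in WT the ligand rose where its receptor Tnfrsf8 fell. Cd70, the ligand of CD27, rose by 1.22 ± 0.25 and 1.05 ± 0.24 (edgeR adjusted p = 0.00204 and 0.00541). Tnfsf9, the ligand of 4-1BB, and Tnfsf14, known as LIGHT, were the only ones of 13 tested to be higher in stimulated DKO than WT cells, by 0.96 ± 0.22 and 0.72 ± 0.19 (edgeR adjusted p = 0.0272 and 0.0409). None was lower, where 5.09% of all tested genes were higher and 6.17% lower. Ligands of the abundant receptors were nearly undetected: Tnfsf13b (BAFF) had 1 to 9 counts, Tnfsf13 (APRIL) 0 to 2 and Cd40lg 0 or 1 in each library.

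For 15 TRAF and noncanonical NF-kB genes the median log2 fold change between stimulated DKO and WT cells was -0.06. Of them 1 was higher in DKO cells and none lower, against 5.09% and 6.17% of all tested genes. It was Traf1, an adaptor and a known target of NF-kB, at 134 CPM in WT and 254 in DKO (1.03 ± 0.19, edgeR adjusted p = 0.0134). In WT cells Traf1 fell on stimulation by a log2 fold change of -1.05 ± 0.14 (edgeR adjusted p = 8.27e-05), in DKO cells it gave -0.26 ± 0.13 (edgeR adjusted p = 0.147), and its interaction term of 0.79 ± 0.19 did not pass (edgeR adjusted p = 0.145). This list had 4 higher and 4 lower genes on stimulation in WT and 2 and 2 in DKO cells, of 15 each. These counts lie near the shares of all genes given for the ligands and are no result about the list. In untreated DKO cells Map3k14 was lower (-0.55 ± 0.11, edgeR adjusted p = 0.00995) while Traf6, Nfkb2 and Traf1 were higher by 0.25 to 0.40. That is 3 higher and 1 lower of 15, against 8.81% and 10.6% of all tested genes.

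The 15 death domain signalling genes had 1 lower and none higher in stimulated DKO cells, against 6.17% and 5.09% of all tested genes. It was Fadd, the adaptor of Fas, at -0.84 ± 0.23 (edgeR adjusted p = 0.0458). Fadd was also lower in untreated DKO cells (-0.60 ± 0.14, edgeR adjusted p = 0.0174), together with Rbck1 (-0.44 ± 0.08) and the necroptosis gene Mlkl (-1.17 ± 0.26). Tnfaip3, an inhibitor of NF-kB, was higher there (0.35 ± 0.09, with overlap between groups). That is 1 higher and 3 lower of 15, against 8.81% and 10.6% of all tested genes. On stimulation 1 of 15 rose and 3 fell in WT cells, where 17.8% of all tested genes rose and 22.8% fell. In DKO cells 2 rose and 5 fell, where 16.2% of all tested genes rose and 16.8% fell. Whether the list differs from all genes was not tested. Cflar, the inhibitor of caspase-8 known as c-FLIP, fell in both (-0.82 ± 0.17 and -1.12 ± 0.17, edgeR adjusted p = 0.00190 and 0.000300). Mlkl fell too (-3.21 ± 0.35 and -1.76 ± 0.34, edgeR adjusted p = 2.49e-05 and 0.00195). So did Rnf31 (-0.42 ± 0.13 and -0.56 ± 0.13, edgeR adjusted p = 0.0241 and 0.00653). Casp8 rose in both (0.40 ± 0.14 and 0.58 ± 0.14, edgeR adjusted p = 0.0335 and 0.00602). No gene of these 4 lists passed in the interaction with edgeR.

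Other cells of the spleen also carry CD30 and OX40, so their markers are given beside these receptors, first for stimulated cells. There 5.09% of all tested genes were higher in DKO and 6.17% lower. The 12 T cell markers summed to 189 to 207 CPM in WT and 139 to 182 CPM in DKO libraries, most of it Lck. Of 7 tested, Cd5 (-1.43 ± 0.24) and Cd2 (-1.45 ± 0.29) were lower in DKO (edgeR adjusted p = 0.0103 and 0.0175) and none was higher. The 6 defining genes of T cells had 28 counts or fewer each in every library. Dendritic cell markers summed to 40.7 to 48.8 CPM in WT and 68.8 to 69.2 CPM in DKO. Of 4 tested, Flt3 was higher in DKO (0.91 ± 0.20, edgeR adjusted p = 0.0246). Xcr1 (0.73 ± 0.22) and Zbtb46 (0.58 ± 0.20) did not pass (edgeR adjusted p = 0.0594 and 0.0902), and Itgax gave -0.09 ± 0.78. Xcr1 and Zbtb46 did not overlap between genotypes, as held for 62.7% of all tested genes. Of the untested genes of that list, Clec9a had 0 or 1, Siglech 1 to 3 and Cd209a 0 to 4 counts in the stimulated libraries, and Batf3 had 0 and 1 in WT and 9 and 3 in DKO. Natural killer cell markers summed to 8.31 CPM in both WT libraries and to 3.75 and 4.05 CPM in DKO, with Il2rb lower (-1.03 ± 0.28, edgeR adjusted p = 0.0451). Monocyte and macrophage markers summed to 68.6 to 79.6 and 55.9 to 58.3 CPM. Of 6 tested, Adgre1, at a mean of 45.4 CPM in WT, was lower in DKO (-0.69 ± 0.18, edgeR adjusted p = 0.0406). The other 5 did not pass. Among them Lyz2 (0.59 ± 0.23), Ly6c2 (0.90 ± 1.00), Csf1r (0.28 ± 0.52) and Cd68 (0.07 ± 0.20) were positive and Vcam1 (-0.92 ± 0.43) negative. Plasma cell markers summed to 529 to 574 and 562 to 622 CPM, most of it Irf4, at a mean of 455 CPM in DKO. Of 7 tested, Xbp1 was lower in DKO (-0.78 ± 0.18, edgeR adjusted p = 0.0282) and the other 6 did not pass. Among them Jchain (0.76 ± 0.29), Mzb1 (0.41 ± 0.17), Irf4 (0.29 ± 0.18), Prdm1 (0.27 ± 0.36) and Sdc1 (0.06 ± 0.26) were positive and Creb3l2 (-1.38 ± 0.38) negative. Neutrophil markers stayed at or under 1.70 CPM. B cell markers summed to 6212 to 6704 CPM in WT and 4564 to 4991 CPM in DKO, with 1 of 8 lower, Cd22 (edgeR adjusted p = 0.0171).

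In the numbered untreated libraries T cell markers summed to 95.2 to 126 CPM in WT and 54.6 to 88.3 CPM in DKO. Natural killer cell markers summed there to 8.33 to 12.7 and 3.38 to 6.13 CPM. Dendritic cell markers, which overlapped, summed to 59.8 to 82.2 and 75.2 to 79.5 CPM. Of 5 tested dendritic cell markers 1 was higher in untreated DKO cells, Zbtb46 (0.40 ± 0.09, edgeR adjusted p = 0.0183). The other 4 did not pass, with Flt3 at -0.44 ± 0.29, Itgax at -0.56 ± 0.33, Batf3 at -0.03 ± 0.43 and Xcr1 at 0.04 ± 0.38. The part of these differences in the results for Tnfrsf8 and Tnfrsf4 was not tested.

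The 2 additional WT libraries placed some members outside the range of the other untreated WT libraries. Tnfrsf13c was at 492 and 523 CPM, Fas at 73.4 and 91.5 and Cd27 at 22.7 and 14.01, all above, and Cd40 and Tnfrsf1b (25.3 and 18.1) were below. Monocyte and macrophage markers summed to 199.7 and 249 CPM there, against 71.7 to 87.0 in the other untreated WT libraries. These libraries were deposited apart, so batch and cells cannot be told apart.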

How the data were processed

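The 12 libraries of splenic B cell RNA were made with poly(A) selection and a NEBNext Ultra kit, per the labels' protocols. The values used are raw counts per gene that the authors deposited, read with exonic gene lengths. FastQC 0.10.1, cutadapt 1.9.1, HISAT2 2.2.1, HTSeq 0.6.1 and GRCm39 are named in the submitters' processing notes. Sources used here give neither the strand setting nor the annotation. The 12 FPKM columns were not used, and the third table's coordinates, of an older build, were left out.

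CPM are counts over the plain library total. Tests used edgeR 4.0.16 in R 4.3.3 (two-sided quasi-likelihood test, TMM scaling, filterByExpr with a minimum count of 10 and total of 15, Benjamini-Hochberg adjustment over all tested genes, threshold 0.05). DKO and WT were compared in separate fits of 6 untreated and 4 stimulated libraries. Stimulation and interaction came from 1 fit of 10 libraries with 4 group means. The SE is the absolute log2 fold change over the square root of F. Scripts were tested on simulated counts. Promoter motifs were searched in RefSeq entries.

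The members, gene lists and comparisons were chosen with earlier results of these data known. All 10 members are named. From each list up to 4 called genes per comparison could be named, by smallest p, among those averaging at least 5 CPM in some group. Not all of these are named, and the choice among them was made with their values seen. Ligands of named receptors and marker genes beyond these were also chosen after their values were seen. Alternatives were DESeq2 1.42.0, RLE scaling, no filter or a stricter one (1 CPM in all libraries of some group), each library left out, immunoglobulin genes left out, a replicate block, a single fit, counting the additional WT libraries as WT, and only genes of the same length in both tables. After seeing the data, 2 more were added: a term for sex, and leaving out both female-reading libraries.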

Additional observations from a re-analysis of the deposited data

Results flagged for a closer look

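Tnfrsf8 was the single member whose change on stimulation differed between genotypes by a test of the difference itself, with an interaction term of 2.74 ± 0.31 in log2 (edgeR adjusted p = 0.00488). The direction was the same in each of the 18 alternatives (2.44 to 3.10), and the adjusted p ranged from 1.53e-16 with DESeq2 to 0.0515 without the WT library without a number. No group held enough libraries to test for a library that stands apart.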

How the results depend on the processing

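In stimulated cells the higher calls of Tnfrsf8 and Tnfrsf4 held in each alternative run, and the fall of Tnfrsf8 and Tnfrsf1b and the rise of Tnfrsf13b in WT cells held in each of 18. For untreated DKO against WT cells (2 members higher, 1 lower, 2638 genes of all called), no filter gave 4 and 0, DESeq2 gave 4 higher, a single fit gave 1 and 0, and counting the additional WT libraries as WT gave 0 and 0 with 319 genes called. That last alternative turned Fas to -0.17, Tnfrsf13c to -0.29 and Cd27 to -0.97. A term for sex gave 5 higher and 4392 genes. Without the 2 libraries that read as female there were 1 higher and 0 lower, and Cd27 was at -0.22. The replicate block gave 0 higher, 0 lower and 786 genes called. Deviations of same-numbered WT and DKO libraries correlated at -0.35, -0.35 and 0.14. The highest correlation of any WT with any DKO library, 0.44, was between WT 2 and DKO 1, which both read as female. With 3 libraries a group, these values cannot show whether the numbers mark pairs. No paired analysis was possible for stimulated cells or the joint fit because 1 WT column carries no shared number. In stimulated cells 1625 genes were called, 2847 with no filter and 3429 in a single fit. On stimulation in DKO cells (1 member lower) a term for sex gave 2 lower, as did leaving out both libraries that read as female, where Tnfrsf8 was at 0.038. The interaction (21 genes of all) called 491 with no filter, 164 with DESeq2, 81 with a term for sex and 62 without both female-reading libraries, and Cd27 was at -0.024 with immunoglobulin genes left out. The cause of these shifts was not tested.

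Leaving out each library in turn gave, for untreated DKO against WT, 0 to 3 members higher, 0 to 1 lower and 923 to 2779 genes (fewest without untreated WT 3), Cd27 at -0.28 to 0.20 and Tnfrsf13c at -0.029 to 0.13. For stimulated cells it gave 2 to 4 members higher and 576 to 5977 genes (576 without the WT library without a number, 743 without WT 1, 3481 without DKO 1 and 5977 without DKO 2), Cd27 at -0.13 to 0.22, Fas at -0.019 to 0.40 and Tnfrsf1b at -0.41 to 0.14. Stimulation in WT cells gave 1 to 3 members higher and 3557 to 7031 genes. Stimulation in DKO cells gave 0 to 2 members higher and 1 to 2 lower, Cd40 at -0.52 to 0.049 and Tnfrsf8 at -0.23 to 0.047. The interaction gave 0 to 1 member and 1 to 1244 genes (1244 without stimulated DKO 2), Cd27 at -0.18 to 0.35, Cd40 at -0.015 to 0.56, Fas at -0.37 to 0.063 and Tnfrsf1b at -0.065 to 0.46.

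Depth limits Tnfrsf17 and Tnfrsf1a, at 0 to 3 and 2 to 19 counts. With 2 or 3 libraries a group, a member that did not pass is not shown to be unchanged.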
